A study of Mus musculus with 19 samples.

Results

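Ribosome-bound messenger RNA of cortical astrocytes was compared between estrus and proestrus, 2 successive stages of the female mouse reproductive cycle. The members were the 4 libraries labelled estrus and the 3 labelled proestrus (written Pro-Day in the labels), 7 of the 19 libraries in the series. The other libraries were 8 of metestrus females and 4 of males, and they entered the fit for the spread of each gene and, where they share a batch with the 7, for the batch term. All 19 libraries came from mice of the line Ald1l1-L10a-eGFP, on a mixed B6 and FVB background, which carry ribosomal protein L10a fused to EGFP under regulatory sequence of the astrocyte gene Aldh1l1, so the estrus and the proestrus mice shared this transgene. Tagged ribosomes were pulled down and their RNA was sequenced (translating ribosome affinity purification, TRAP). Tissue is given as brain in the labels, and as cortex in the series title. Females were collected at 09:00 on their day of the cycle. No age is given. Batch 2 held Estrus 1 to 3 and Proestrus 1 and 2, and batch 3 held Estrus 4 and Proestrus 3. The numbers are names only. Nothing in the labels ties a library to an animal of its own, so p-values measure the spread between libraries, which may be technical.

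Proestrus is the stage in which circulating estradiol climbs to its peak and triggers the surge of luteinizing hormone, and progesterone rises after that surge. Estrus follows, with ovulation, and estradiol is then low again. Astrocytes supply neurons with metabolites, clear glutamate and potassium from the extracellular space, and carry receptors for steroid hormones, whose nuclear forms (such as ERα, encoded by Esr1) act as transcription factors at response elements in DNA. TRAP reads the messages on ribosomes and does not separate a change in transcription from a change in translation. Libraries of bulk RNA also cannot tell fewer cells of a type apart from less RNA per cell.

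Expression was given as a normalised log2 value per gene and library, so a difference of 1 is a doubling. Of 21749 genes, 20644 reached a value of 3.32 (10 before the log) in at least 3 libraries and were tested with limma, with batch as a covariate and Benjamini-Hochberg adjustment over all 20644. Genes are called abundant where their mean over the 7 libraries was at least 7, which held for 11299 genes, and scarce otherwise, which held for 9345. Genes just inside and just outside this limit had means of 7.00013 and 6.99959. Powers of 2 of the values summed to between 1.98e+07 and 2.56e+07 per library over the series, with the lowest sum in Estrus 4. The median over tested genes was 7.47 in Estrus 4 and 7.79 in Estrus 1, the lowest and highest of the 7 libraries. Read depth is not known from these values. No pair of libraries held identical values, and the highest correlation between any pair was 0.980.

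Aldh1l1, the gene whose regulatory sequence drives the tag, had a mean of 12.06 ± 0.37 (SD, n = 4) in estrus and 11.94 ± 0.10 (SD, n = 3) in proestrus. The 22 astrocyte markers were all tested and all abundant, and their mean level was 13.6 to 14.2 in estrus libraries and 13.99 to 14.02 in proestrus libraries. Markers of other cells were also present: 17 of 18 neuron markers, 11 of 13 oligodendrocyte markers and 9 of 13 microglia markers were abundant. None of the markers on these 4 lists passed the test. Long non-coding RNAs that are mostly kept in the nucleus, Malat1 and Neat1 among them, had a median difference of -1.19 over 10 genes. All 10 had negative differences, 6 with an unadjusted p under 0.05 and 0 past the adjusted threshold. Their mean level was 8.70, 7.84, 7.24 and 9.48 in Estrus 1 to 4 and 10.02, 8.88 and 10.51 in Proestrus 1 to 3, so the groups overlapped through Estrus 4 and Proestrus 2. The part of this shift in the results that follow was not tested.

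In all, 52 of the 20644 tested genes passed an adjusted p of 0.05 (0.252%), 42 higher in estrus (0.203%) and 10 lower (0.0484%). Most were scarce: 46 of 9345 scarce genes passed (0.492%), 38 higher (0.407%) and 8 lower (0.0856%). Of 11299 abundant genes 6 passed (0.0531%), 4 higher (0.0354%) and 2 lower (0.0177%). At an unadjusted p under 0.05 stood 2381 genes (11.5%). The calls rest on the spread shared with the metestrus and male libraries. With the 7 libraries alone 0 genes passed, the lowest adjusted p was 0.201, and an unadjusted p under 0.05 was seen for 2132 genes (10.3%). The deposited values lack some directions of variation between libraries, and a fit that ignores this gave 194 calls (0.940%). Single libraries also moved the count: it was 195 without Estrus 4, 103 without Proestrus 3, 102 without Estrus 1 and 32 without Proestrus 1. These fits also hold fewer of the missing directions, so the shift cannot be put down to the library alone.

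**Figure D1:**
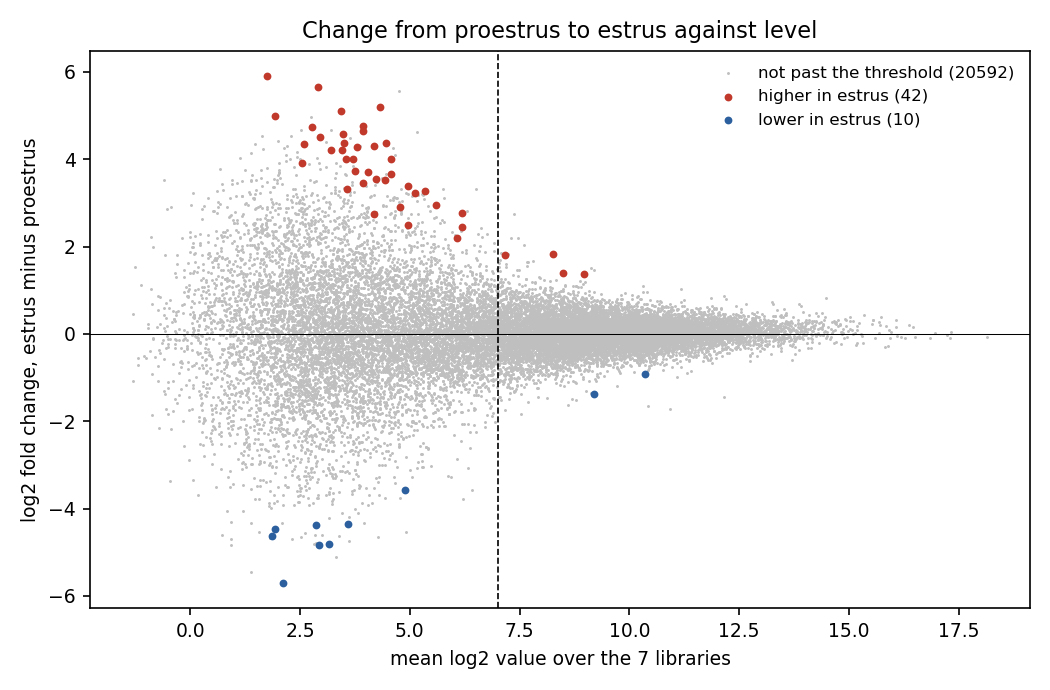
Log2 fold change from proestrus to estrus (vertical axis) against the mean log2 value over the 7 libraries (horizontal axis) for 20644 genes. Grey points are genes not past the threshold, red and blue points are the 42 higher and 10 lower in estrus, and the dashed line is the limit between scarce and abundant genes at 7. The points spread widely on the left and narrow to the right.

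Among abundant genes the differences were small. The median absolute log2 difference was 0.21 and the 90th percentile 0.58, and 160 of 11299 genes (1.42%) differed by more than 1 on the log2 scale. For 8516 abundant genes (75.4%) the whole 95% interval of the difference lay within 1 of zero, so a change of 2-fold or more lay outside their interval. The share depended on the level: it was 50.1% of genes with a mean of 7 to 9, 87.4% at 9 to 11 and 96.3% at 11 or more. Scarce genes had a median absolute difference of 0.74 and a median SE of 0.90, against 0.26 for abundant genes, and only 198 of them (2.12%) had an interval within 1 of zero. A change of 2-fold was therefore not excluded for nearly all scarce genes, and the smallest difference of a scarce gene that passed was 2.19. Over all tested genes the median difference was 0.02.

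The abundant genes that rose in estrus were Plaat1, Marchf1, Ippk and Zfp60, and those that fell were Bcl9l and Dact3. The products of both genes that fell bind components of the Wnt pathway. Promoters are shown for Ippk and Dact3, an abundant gene of each direction, and for Esr1 and Ccnf, which are described with the scarce genes. Each sequence is the 250 bases upstream of the transcription start from RefSeq, on GRCm38.p6, 5′ to 3′ on the gene's strand. The deposited values were made on GRCm39, so the match is by gene symbol. Where the table held 2 starts for a gene (Ippk and Esr1), the first was used. Capitals mark the motif matches: GGTCA or its complement TGACC, the core of an estrogen response element, TGANTCA, bound by AP-1, and the core of the interferon-stimulated response element. The positions are chr13:49420992-49421241 (plus strand) for Ippk, chr7:16875067-16875316 (plus strand) for Dact3, chr10:4611739-4611988 (plus strand) for Esr1 and chr17:24251410-24251659 (minus strand) for Ccnf.
Ippk: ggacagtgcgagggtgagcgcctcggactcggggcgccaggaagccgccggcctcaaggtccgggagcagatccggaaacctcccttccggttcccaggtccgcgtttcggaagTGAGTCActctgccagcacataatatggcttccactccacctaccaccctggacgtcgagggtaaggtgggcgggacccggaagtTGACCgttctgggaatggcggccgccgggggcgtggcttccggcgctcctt
Dact3: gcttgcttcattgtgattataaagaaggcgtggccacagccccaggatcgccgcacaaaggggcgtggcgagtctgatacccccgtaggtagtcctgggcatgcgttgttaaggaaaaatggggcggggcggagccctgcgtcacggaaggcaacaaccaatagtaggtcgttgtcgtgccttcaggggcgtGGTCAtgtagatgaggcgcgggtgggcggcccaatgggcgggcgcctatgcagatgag
Esr1: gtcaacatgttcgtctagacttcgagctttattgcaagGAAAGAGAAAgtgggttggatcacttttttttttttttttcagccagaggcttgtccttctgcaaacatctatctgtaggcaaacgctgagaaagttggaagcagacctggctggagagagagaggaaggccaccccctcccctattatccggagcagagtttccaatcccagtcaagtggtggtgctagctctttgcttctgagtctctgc
Ccnf: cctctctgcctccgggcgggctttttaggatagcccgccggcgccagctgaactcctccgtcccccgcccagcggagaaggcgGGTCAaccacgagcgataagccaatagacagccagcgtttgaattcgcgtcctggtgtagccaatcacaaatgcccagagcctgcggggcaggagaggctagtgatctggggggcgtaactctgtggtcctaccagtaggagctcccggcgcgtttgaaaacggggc

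Of the 52 genes past the threshold, 29 had a promoter in the table. Both strands were searched. GGTCA was found in 9 of these 29 (31.0%), and in 32.7% of the 13068 promoters of tested genes. It lay 51 bases upstream of the start in Ippk, 58 in Dact3 and 167 in Ccnf. The full palindromic estrogen response element, in which GGTCA and TGACC flank a spacer of 3 bases and which therefore also counts as a GGTCA match, was in 0 of the 29 and in 0.00765% of tested genes' promoters. TGANTCA was in 2 of the 29 (4.44% of tested genes' promoters), with the match in Ippk 136 bases upstream. The core of the interferon-stimulated response element was in 1 of the 29 (2.47% of tested genes' promoters), the match shown in Esr1, 212 bases upstream. The palindromic element of the progesterone and glucocorticoid receptors and the cAMP response element, TGACGTCA, were each in 0 of the 29, and in 0.291% and 2.57% of tested genes' promoters. Each promoter shown holds a match, which most of the 29 do not. Those of Plaat1, Marchf1 and Zfp60, the other abundant genes that rose, hold 0 in the bases searched. A match is a stretch of letters and not a measured binding site.

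Plaat1 encodes a phospholipase A and acyltransferase that acts on membrane phospholipids. It read 8.98, 9.70, 9.03 and 8.58 in Estrus 1 to 4 and 7.42, 7.80 and 6.35 in Proestrus 1 to 3. Every estrus library lay above every proestrus library, with Proestrus 3 the lowest of all. The log2 difference was 1.84 ± 0.34 (SE), a 3.58-fold rise with a limma adjusted p of 0.0200, and the metestrus mean was 8.04 ± 0.36 (SD, n = 8). Without Proestrus 3 the difference was 1.505 and the adjusted p 0.0659, and without Proestrus 1 the adjusted p was 0.0527.

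Marchf1 encodes a membrane-bound ubiquitin ligase that removes MHC class II from the surface of immune cells. Its values were tight within each stage: 7.90, 7.87, 8.12 and 7.84 in Estrus 1 to 4, and 6.21, 5.92 and 6.29 in Proestrus 1 to 3. The gap between the stages was 1.54, more than the range within either. Marchf1 rose 3.48-fold (log2 difference 1.80 ± 0.34, limma adjusted p 0.0230), and stood at 7.77 ± 0.32 in metestrus (SD, n = 8). The adjusted p was 0.0511 without Proestrus 1 and 0.0624 without Proestrus 2.

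Ippk encodes the kinase that makes inositol hexakisphosphate from inositol pentakisphosphate. It read 9.15, 9.15, 8.90 and 9.22 in Estrus 1 to 4 and 7.71, 8.27 and 7.09 in Proestrus 1 to 3. The estrus libraries lay close together, and the proestrus libraries were all lower and more spread. Ippk rose 2.63-fold (1.39 ± 0.27, limma adjusted p 0.0303), with a metestrus mean of 8.35 ± 0.17 (SD, n = 8). The difference was 1.07 in batch 2 and 2.13 in batch 3. Without Proestrus 3 it was 1.08, with an adjusted p of 0.0749, and without Proestrus 1 the adjusted p was 0.0831.

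Zfp60 encodes a zinc finger protein. It read 9.80, 9.50, 9.49 and 9.35 in Estrus 1 to 4, and 8.46, 7.71 and 8.39 in Proestrus 1 to 3. All estrus libraries were above 9.3 and all proestrus libraries below 8.5. The rise was 2.57-fold (1.36 ± 0.25, limma adjusted p 0.0181), the metestrus mean was 9.22 ± 0.27 (SD, n = 8), and the call was lost without Proestrus 2 (adjusted p 0.0694).

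Bcl9l encodes a coactivator that links β-catenin to the transcription machinery. Proestrus libraries read 10.03, 9.87 and 9.99, and Estrus 1 to 4 read 9.05, 8.18, 8.50 and 8.70. The proestrus libraries were within 0.16 of each other and all above the estrus libraries. Bcl9l fell by 1.37 ± 0.28 on the log2 scale, 2.59-fold (limma adjusted p 0.0334), and the difference was -1.37 in batch 2 and -1.30 in batch 3. The size was stable, at -1.51 to -1.22 over the fits that left out 1 library. The call was not: the adjusted p was over 0.05 in 5 of these 7 fits, those without each proestrus library, Estrus 2 or Estrus 3, and reached 0.0876. Metestrus had a mean of 9.29 ± 0.24 (SD, n = 8).

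Dact3 encodes an antagonist of Wnt signalling that binds Dishevelled. It read 10.98, 11.06 and 10.59 in Proestrus 1 to 3 and 10.19, 9.65, 9.82 and 10.14 in Estrus 1 to 4. The nearest pair across the stages, Proestrus 3 and Estrus 1, were 0.40 apart. Dact3 fell by 0.93 ± 0.19 on the log2 scale, 1.90-fold (limma adjusted p 0.0405), by 1.13 in batch 2 and 0.46 in batch 3. The adjusted p went over 0.05 without Proestrus 1, Proestrus 2, Estrus 2 or Estrus 3, and was highest at 0.124. The metestrus mean was 10.18 ± 0.11 (SD, n = 8).

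**Figure D2:**
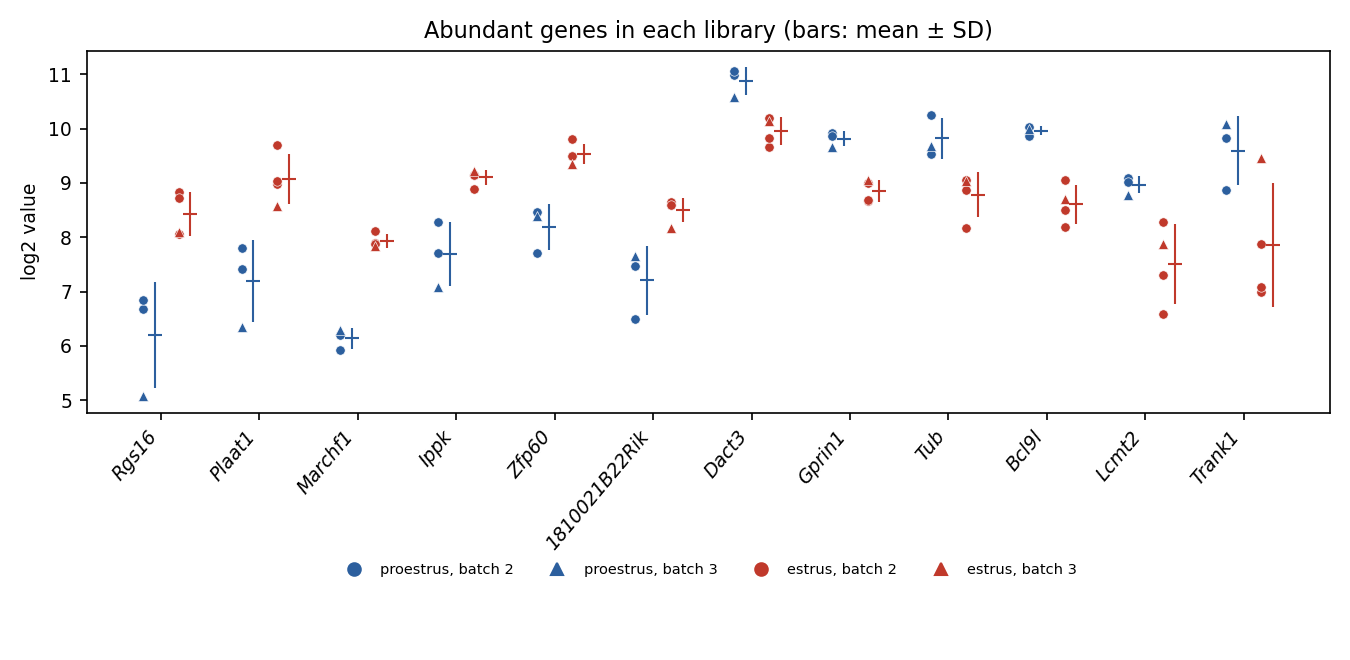
Log2 value (vertical axis) of the 6 abundant genes past the threshold and the 6 next in line (2 higher, 4 lower), in the 4 estrus (red) and 3 proestrus (blue) libraries. Circles are batch 2, triangles batch 3, and bars the mean ± SD of a stage. The stages do not overlap for any of these genes except Trank1, whose Estrus 4 value of 9.46 is within the proestrus range.

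The next abundant genes missed the threshold. On the higher side these were 1810021B22Rik, a RIKEN-named gene (log2 difference 1.30, adjusted p 0.0511), and Rgs16, which speeds the shutting off of G protein signals. Rgs16 read 8.07, 8.83, 8.72 and 8.10 in estrus and 6.68, 6.84 and 5.07 in proestrus. Its difference of 2.19 ± 0.48 exceeded that of every abundant gene that passed, but the limma adjusted p was 0.0588. Proestrus 3 lay far below the other libraries, and Rgs16 did not pass in the fit without it either. On the lower side Gprin1, a G protein-regulated inducer of neurite outgrowth, differed by -0.97 (adjusted p 0.0757) and Trank1 by -1.63 (0.0817). Tub, the tubby protein that brings receptors to cilia, differed by -1.04, and Lcmt2, an enzyme of wybutosine synthesis in tRNA, by -1.46, each with an adjusted p of 0.0840. The groups did not overlap for 404 abundant genes higher in estrus (3.58%) and 446 lower (3.95%).

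Scarce genes made up the rest of the list, and many were near the bottom of the scale in one stage. Of the 42 genes higher in estrus, 32 had a proestrus mean under 3.32, the limit used for testing, and 7 of the 10 lower genes had an estrus mean under it. The read counts behind such low values are not known, and a fold from such a base depends on the scale at low values. All 52 genes past the threshold had stages that did not overlap and the same sign in batch 2 and batch 3, which their choice by the pooled difference nearly fixes. Groups did not overlap for 914 of all tested genes higher in estrus (4.43%) and 957 lower (4.64%). The metestrus mean lay above the proestrus mean for all 42 genes higher in estrus, and below it for all 10 lower ones. Choosing genes by a contrast with proestrus favours such a position of metestrus. Higher or lower in estrus therefore describes the contrast with proestrus alone. In the GENCODE M21 annotation 38 of the 52 (73.1%) were protein coding, against 72.1% of tested genes. That pair mixes the abundance classes. Among scarce genes the share was 69.6% of the 46 that passed and 45.0% of those tested. All 6 abundant genes that passed were protein coding, against 94.6% of abundant genes tested.

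Esr1, which encodes the estrogen receptor ERα, was among the scarce genes that rose. It read 6.51, 6.38, 4.46 and 6.51 in Estrus 1 to 4 and 2.74, 3.75 and 0.64 in Proestrus 1 to 3. The stages did not overlap, though Estrus 3 (4.46) and Proestrus 2 (3.75) were 0.70 apart. The log2 difference was 3.53 ± 0.69 (limma adjusted p 0.0303), 2.53 in batch 2 and 5.86 in batch 3. Metestrus stood at 6.27 ± 0.41 (SD, n = 8). The adjusted p was 0.0749 without Proestrus 3, 0.0667 without Proestrus 1 and 0.0566 without Estrus 4. With 10 added to the values before the log the difference was 2.16 and the adjusted p 0.0579.

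The other steroid receptors described here did not pass. Gper1, a membrane G protein-coupled estrogen receptor, read 7.31, 8.18, 6.34 and 6.73 in estrus and 4.84, 1.27 and 1.41 in proestrus. The stages did not overlap, but Proestrus 1 was well above the other proestrus libraries and the adjusted p was 0.0860 for a difference of 4.62 ± 1.12. Of the fits that left out 1 library, Gper1 passed only in that without Proestrus 1 (limma adjusted p 0.0366). Its adjusted p reached 0.234 in the other fits of this kind. Esr2, which encodes ERβ, ranged from -0.73 to 5.85 within estrus alone. The nuclear progesterone receptor gene, Pgr, was abundant. Pgr had a mean of 8.51 ± 0.29 (SD, n = 4) in estrus and 9.09 ± 0.34 (SD, n = 3) in proestrus, a difference of -0.60 with a 95% interval of -1.14 to -0.06 and an adjusted p of 0.372. Paqr9, a membrane progestin receptor, was lower in every estrus library (7.74, 7.26, 8.27 and 8.11) than in every proestrus library (8.94, 9.31 and 8.70), a difference of -1.13 with an adjusted p of 0.0931. Of the 12 receptors on the list, 1 passed, Esr1, against 0.252% of all tested genes. The list median was 0.15, or -0.15 over its 8 abundant members.

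No enzyme or carrier of neurosteroid synthesis passed. Of the 11 tested, 9 had positive differences, and the median was 0.23. The pair of abundant members with the lowest p-values went in opposite directions. Srd5a1, the reductase that makes dihydroprogesterone and dihydrotestosterone, differed by 0.96 (adjusted p 0.239), and Fdxr, which passes electrons to the steroid-making P450 enzymes, by -1.04 (0.139). Of 17 tested estrogen-responsive genes and coregulators 0 passed, with a median of -0.11, and the coactivator Ncoa3 was the lowest in p (-0.91, adjusted p 0.167). Of 20 glucocorticoid-responsive genes 0 passed and 15 had positive differences, with a median of 0.17.

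Of the scarce genes that rose, those with the lowest adjusted p were Gm43020, Fank1, Vgll3, Usp18, Nwd2os, Gm10645, Ckap2l and Ccnf. Each passed in all 7 fits that left out 1 library. With 10 added before the log their differences shrank to between 1.53 and 3.06, and 6 of the 8 still passed. Usp18 encodes a protease that takes ISG15 off proteins and damps the type I interferon receptor. It read 5.20, 6.11, 6.23 and 4.98 in Estrus 1 to 4 and 1.26, 0.01 and 0.31 in Proestrus 1 to 3, with 5.75 ± 0.68 in metestrus (SD, n = 8). Every proestrus library was under the testing limit and every estrus library over it (difference 5.10 ± 0.70, limma adjusted p 0.00183). No other interferon-stimulated gene on the list passed: it was 1 of 24 tested, which was Usp18, against 0.252% of all tested genes. The list median was 0.12. Abundant Ifit3b differed by 0.91 (adjusted p 0.314) and Slfn2 by -1.83 (0.300).

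Ccnf encodes cyclin F, the substrate-binding part of a ubiquitin ligase of the cell cycle. It read 7.86, 5.48, 6.25 and 5.58 in estrus and 3.07, 1.70 and 2.09 in proestrus. No libraries overlapped, and the difference was 4.00 ± 0.59 (limma adjusted p 0.00330). Ckap2l, which encodes a protein of the mitotic spindle, stood at 4.38 to 5.39 in estrus and -0.21 to 0.91 in proestrus (4.52 ± 0.67, adjusted p 0.00330). With 10 added before the log Ckap2l differed by 1.82 and lost its call (adjusted p 0.0556). Of 27 tested cell cycle genes 1 passed, Ccnf, against 0.252% of all tested genes, and the median of the list was 0.04. Rad54b, which acts in recombination repair of DNA, went the other way, from 4.51, 6.13 and 5.27 in proestrus to 0.81, 0.37, 2.64 and 0.29 in estrus (-4.38 ± 0.83, adjusted p 0.0250). Rad54b lost its call without Proestrus 2 (adjusted p 0.0694) or Proestrus 3 (0.0668), without a batch term (0.0543), with the filter at 50 (0.0648), and with 10 added before the log (-2.07, 0.0790).

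Vgll3, a cofactor of TEAD transcription factors, read 5.15 to 8.09 in estrus and 0.74 to 1.78 in proestrus. Its difference was 5.20 ± 0.70 (limma adjusted p 0.00183) and its estrus libraries were the most spread of these genes. Fank1, a protein with fibronectin and ankyrin repeats, read 4.58 to 6.88 in estrus and -0.07 to 1.92 in proestrus (4.75 ± 0.61, adjusted p 0.00158). Gm43020 and Gm10645, which have no described product, had differences of 5.91 and 4.57. With 10 added before the log these were 1.53, with the call lost (adjusted p 0.0734), and 2.17. Nwd2os is named as a transcript on the strand opposite Nwd2, and whether reads were counted by strand is not known, so it may share reads with that gene. It stood at 2.87 to 3.19 in proestrus, with the lowest SD of these 8 genes there (0.16), and at 5.98 to 6.80 in estrus.

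The scarce genes that fell included the transcription factors Tbx2, Tcfl5 and Sox18. Tbx2, a T-box repressor, read 5.34, 5.90 and 6.59 in Proestrus 1 to 3 and 0.10, 0.93, 2.02 and 1.31 in Estrus 1 to 4. The stages were over 3 apart at their nearest, the difference was -4.82 ± 0.87 (limma adjusted p 0.0181), and metestrus lay between them at 2.86 ± 0.81 (SD, n = 8). Tcfl5, a basic helix-loop-helix factor, had a difference of -4.36 ± 0.92 with an adjusted p of 0.0492, and the call was lost without Estrus 2 or any of the proestrus libraries. Gm43670 (-5.69), Slc35f2, a solute carrier (-4.64), and Cep72, a centrosome protein (-4.48), also fell, each with an estrus mean under 0.1. Slc35f2 lost its call without any of the proestrus libraries (adjusted p up to 0.0790), and Cep72 without Proestrus 1 (0.112) or Proestrus 2 (0.0946). Both also lost it without a batch term and with 10 added before the log, where they differed by -1.497 and -1.57.

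Sox18, a transcription factor of blood vessel and lymphatic endothelium, read 7.69, 6.94 and 6.03 in Proestrus 1 to 3 and 4.38, 3.85, 2.19 and 3.14 in Estrus 1 to 4. The proestrus libraries were all higher, and Sox18 fell by 3.57 ± 0.61 on the log2 scale (limma adjusted p 0.0153). Without Proestrus 1 the difference was -3.29, with an adjusted p of 0.0592. Most endothelial and mural cell markers were lower in estrus too. Of the 14 listed 0 passed, 11 were negative, 4 of them with an unadjusted p under 0.05, and the median was -0.51. Their mean level was 4.27 to 5.39 in estrus and 4.80 to 5.93 in proestrus, so the groups overlapped. Cldn5, a tight junction protein of brain endothelium, read 6.32, 6.27, 6.14 and 7.78 in estrus and 7.86, 7.53 and 7.86 in proestrus (adjusted p 0.366), so that Estrus 4 lay with the proestrus libraries. The part of these markers in the Sox18 result was not tested.

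**Figure D3:**
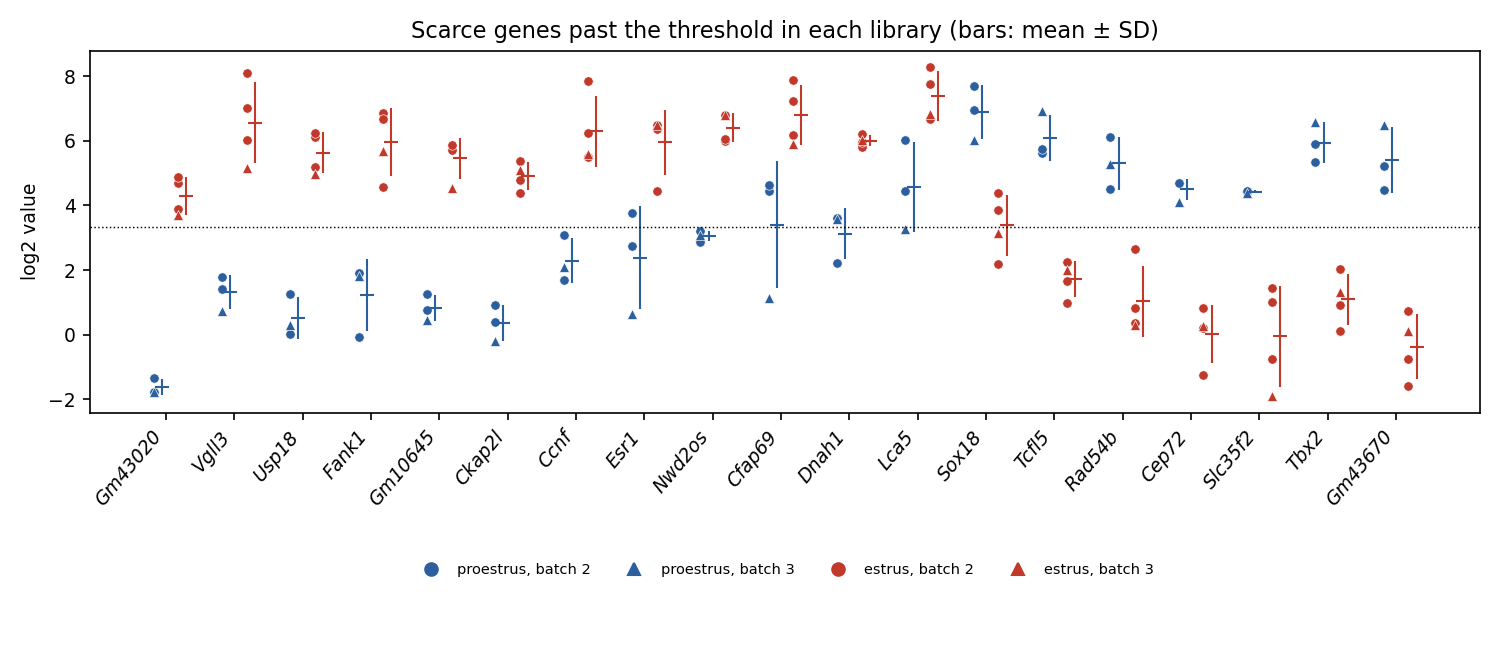
Log2 value (vertical axis) of 19 scarce genes past the threshold in the 4 estrus (red) and 3 proestrus (blue) libraries, with circles for batch 2, triangles for batch 3 and bars for the mean ± SD of a stage. The dotted line is the testing limit of 3.32. In most of these genes the lower stage sits under the line.

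Cilium genes held 3 of the scarce genes that rose. Dnah1, a heavy chain of axonemal dynein, read 5.81, 5.96, 6.21 and 6.04 in estrus and 3.61, 2.21 and 3.57 in proestrus. Its estrus libraries were within 0.39 of each other, and the difference was 2.90 ± 0.53 (limma adjusted p 0.0181, and 0.0624 without Proestrus 2). Cfap69, a protein of motile cilia and flagella, rose by 3.27 ± 0.62 (0.0250, and 0.0691 without Proestrus 3). Lca5 encodes lebercilin, which acts in transport along the primary cilium, and stood at 6.67 to 8.28 in estrus and 3.25 to 6.02 in proestrus (2.76 ± 0.50, adjusted p 0.0181). Lca5 lost its call without Proestrus 1 or Proestrus 3, where the adjusted p reached 0.0743. Metestrus means were 6.42 for Dnah1, 6.60 for Cfap69 and 7.39 for Lca5. Of 23 tested genes of motile cilia 2 passed, with a median of 0.05, and of 30 of primary cilium transport 1 passed, with a median of 0.14. The share past the threshold was 0.252% over all tested genes, and an excess in these lists was not tested. The mean level of the motile cilium list was 4.403 to 4.509 in estrus and 3.835 to 3.985 in proestrus, without overlap. That mean includes Dnah1 and Cfap69, which were chosen by this same contrast. The median of the motile cilium list was not stable. It was -0.08 without the batch term and 0.78 without Proestrus 3.

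Markers of ependymal cells, which bear motile cilia, and of choroid plexus were mostly higher in estrus as well. Of 12 markers 0 passed, 9 were positive and the median was 0.36. Their mean level was 6.61 to 6.83 in the estrus libraries and 6.26 to 6.29 in the proestrus libraries, without overlap. This was not particular to these markers: the means of 5 of the 39 lists were higher in every estrus library, among them motile cilium, cell cycle, tRNA modification and sex steroid receptor genes, and those of 0 lists were lower in every one. The motile cilium, cell cycle and receptor lists hold Dnah1 and Cfap69, Ccnf, and Esr1, chosen by this same contrast. Their means are raised in part by these genes, so their separation is no independent result. The medians of these lists were 0.05, 0.04 and 0.15. Foxj1, the regulator of motile ciliogenesis, differed by 0.93, and Dynlrb2 and Ccdc153 by 1.55 and 1.56. These 3 genes were chosen after their values were seen, as the members with an unadjusted p under 0.05. At the other end, Folr1, the folate receptor of choroid plexus, differed by -1.63 ± 1.54 (SE). Ttr, which choroid plexus makes in bulk, differed by 0.88 ± 1.73 (SE). The part of these markers in the cilium genes' result was not tested.

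Other scarce genes that rose were picked from the list after their values were seen. Fancd2, of the Fanconi anaemia pathway of DNA repair, differed by 3.47 (adjusted p 0.0286), and Fgf10, a fibroblast growth factor, by 2.74 (0.0286). Tnfsf13b, the B cell survival factor BAFF, differed by 5.65 (0.0303) and Npy2r, a neuropeptide Y receptor, by 3.71 (0.0436). Parp9, an ADP-ribosyltransferase family member induced by interferon, had the smallest change of the scarce genes past the threshold, 2.19 (0.0176). Parp9 was not on the list of interferon-stimulated genes, so the count given for that list leaves it out. Its estrus mean was 6.99, and its mean over the 7 libraries, on which the limit for abundant genes is set, was 6.07.

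The list of 32 Wnt and β-catenin signalling genes held Bcl9l and not Dact3. Of the 32, 1 fell and 0 rose past the threshold, against 0.0484% and 0.203% of all tested genes. Differences were negative for 21, and the list median was -0.18. All tested genes had a median of 0.02, and 52.0% of them were positive. The abundant ligands Wnt9a and Wnt7a differed by -1.02 (adjusted p 0.480) and -0.55 (0.504). The median was between -0.27 and -0.01 over the alternatives.

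Genes of signalling to astrocytes by monoamines, purines and calcium gave 0 of 32 past the threshold, 23 of them negative, with a median of -0.28. Adra1b, the α1B-adrenergic receptor through which noradrenaline raises calcium in astrocytes, read 7.57, 7.14, 6.42 and 6.96 in estrus and 9.17, 8.69 and 7.85 in proestrus. No estrus library reached a proestrus library, but the adjusted p was 0.0903 for a difference of -1.56 ± 0.38. Glutamate and GABA handling had 0 of 21 past the threshold and a median of -0.08. Within it Grin2c, the NMDA receptor subunit GluN2C, was lower in every estrus library (8.84 to 9.88) than in every proestrus library (10.2 to 10.7), with a difference of -1.19 and an adjusted p of 0.164. Potassium, water, gap junction and anion channels had 0 of 22 and a median of -0.10, with Kcnk10 at -0.84 (adjusted p 0.382).

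No metabolic gene on the lists passed. Oxidative phosphorylation subunits had 0 of 37 past the threshold and a median of 0.06, and cytosolic ribosomal proteins 0 of 60 and -0.07. Glycolysis, glycogen and lactate genes had 0 of 26 and 0.18, fatty acid oxidation and ketone genes 0 of 18 and 0.19, and cholesterol synthesis and sterol control 0 of 25 and -0.06. All 37 subunits and all 60 ribosomal proteins were abundant genes. Genes of tRNA modification had 0 of 30 past the threshold, though 23 were positive, with a median of 0.20. The median difference of this list was 0.30 in batch 2 and -0.22 in batch 3.

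Stress and clock genes had no member past the threshold. Of 26 heat shock and chaperone genes 21 were positive, with a median of 0.18, and Hspd1, the mitochondrial chaperonin, differed by 0.58 ± 0.18 (adjusted p 0.192). Integrated stress response genes had 0 of 20 and a median of 0.04, with Mthfd2, a mitochondrial folate enzyme, at 1.62 (adjusted p 0.142). Of 21 circadian clock genes 0 passed, with a median of 0.08. Ciart, a repressor of the clock, read 9.02, 10.52, 11.42 and 8.20 in Estrus 1 to 4 and 8.10, 8.11 and 8.47 in proestrus. Its batch 2 difference was 2.21 and its batch 3 difference -0.27, and Estrus 4 lay inside the proestrus range. Nr1d1, which encodes REV-ERBα, likewise differed by 0.59 in batch 2 and -0.03 in batch 3.

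Markers of reactive and inflammatory states also had no member past the threshold. Of 11 pan-reactive astrocyte genes, 15 A1-type and complement genes, 19 pattern receptors and inflammatory signalling genes and 14 antigen presentation genes, 0 passed, with medians of 0.04, 0.03, -0.27 and 0.16. Gfap, the astrocyte intermediate filament, was 15.17, 15.36, 15.42 and 14.39 in Estrus 1 to 4 and 14.66, 14.90 and 14.68 in Proestrus 1 to 3, so that Estrus 4 was the lowest of the 7 libraries and the other estrus libraries were the highest (difference 0.31, 95% interval -0.13 to 0.76). Serpina3n, a secreted protease inhibitor, differed by 1.07 (adjusted p 0.314). Secreted synapse-forming and growth factors had 0 of 25 past the threshold and a median of 0.06, with Bdnf, brain-derived neurotrophic factor, at -0.86 (adjusted p 0.263). Immediate early genes had 0 of 20 and a median of -0.11.

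The remaining lists also had 0 members past the threshold. Intermediate filaments and linkers of perisynaptic processes (20 tested) had a median of 0.07, and antioxidant and metal-binding genes (24 tested) 0.04. Phagocytosis and lipid export genes (16 tested) had -0.12, with Lrp1, a large endocytic receptor for apolipoproteins, at -0.59 (adjusted p 0.365). The renin-angiotensin system (6 tested) had -0.22. Among the markers of other cells, fibroblast and meninges markers (10 tested) had a median of -0.13, neuron markers 0.04, oligodendrocyte markers 0.24 and microglia markers 0.05.

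**Figure D4:**
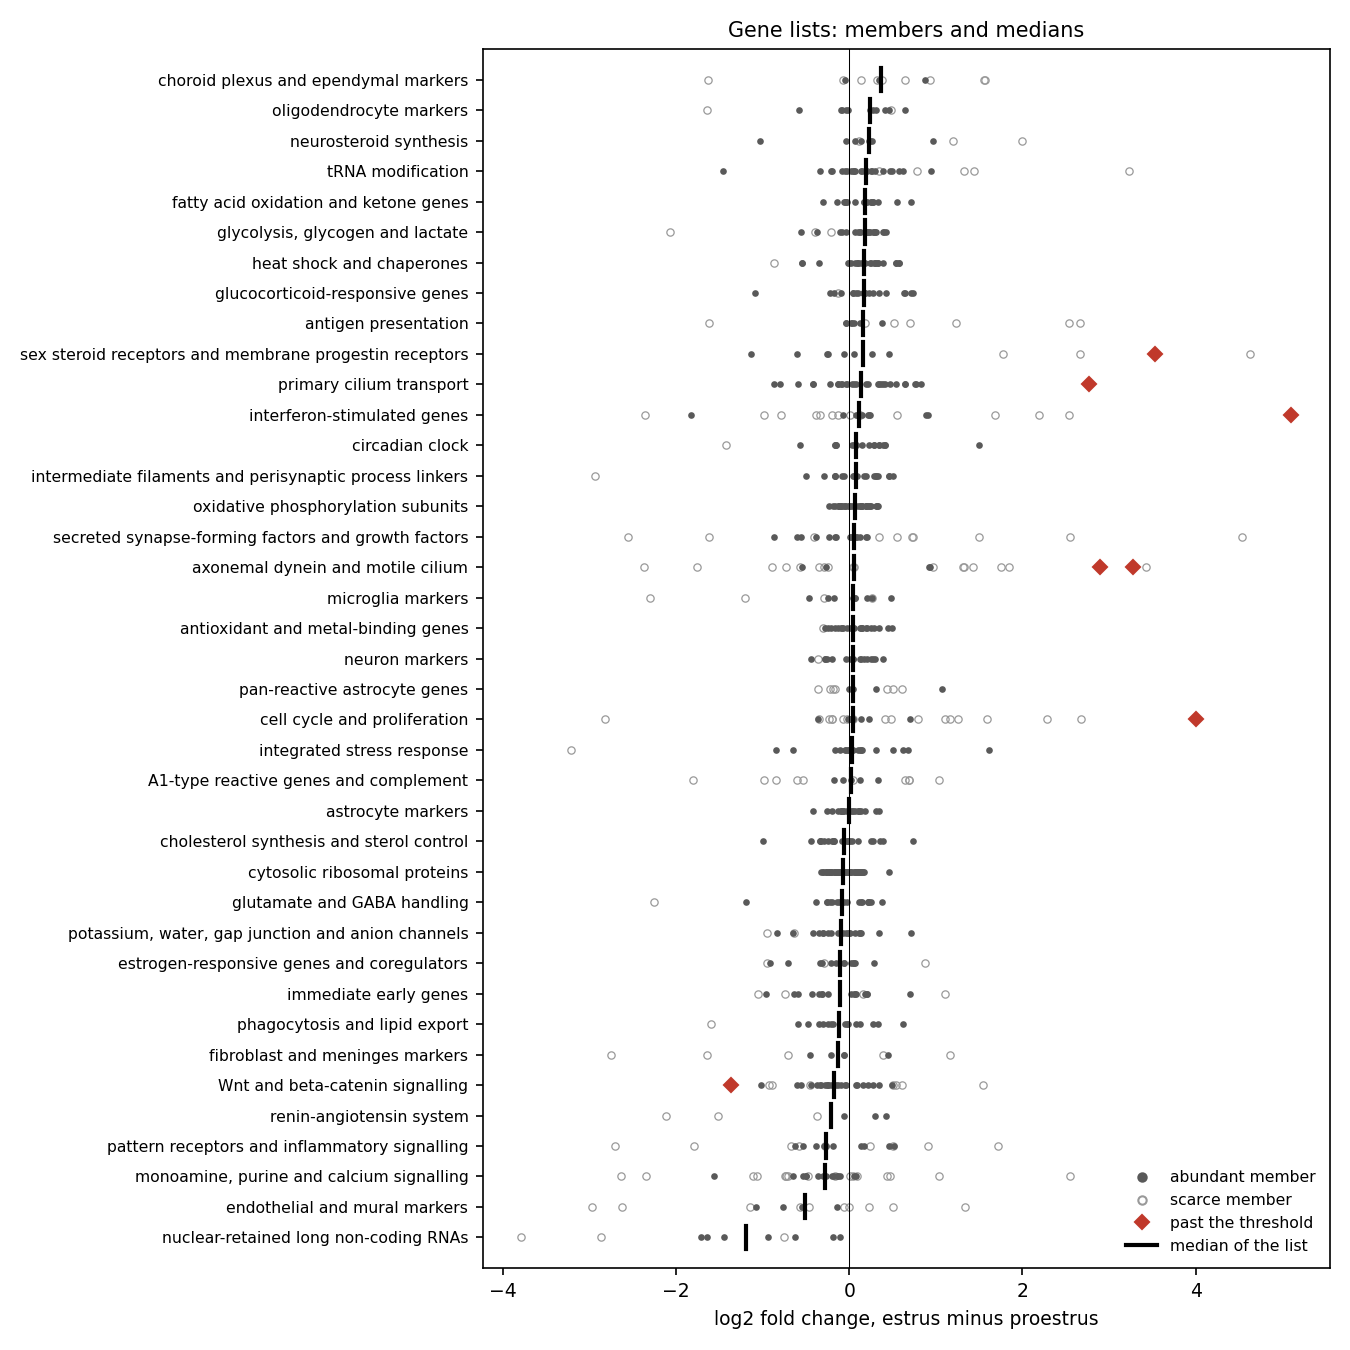
Log2 fold change, estrus minus proestrus (horizontal axis), of the tested members of 39 gene lists (rows), with filled circles for abundant members, open circles for scarce ones, red diamonds for genes past the threshold and a black bar for the median. All but 3 medians lie within 0.3 of zero, those of the choroid plexus and ependymal, endothelial and mural, and nuclear RNA lists.

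Over all tested genes 10348 (50.1%) had the same sign in batch 2 and batch 3, where batch 3 held 1 library per stage. The genes past the threshold were chosen on both batches together, so their common sign is no independent support. For the 22 astrocyte markers the median difference was 0.15 in batch 2 and -0.42 in batch 3, and for microglia markers 0.33 and -0.72. Among lists with a positive median, only those of motile cilium genes, interferon-stimulated genes, and choroid plexus and ependymal markers were positive in both batches. The others were positive in batch 2 and negative in batch 3. Without the 3 libraries of batch 3 the number of genes past the threshold was 403, of which 158 were abundant. That fit was chosen after the data were seen.

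**Figure D5:**
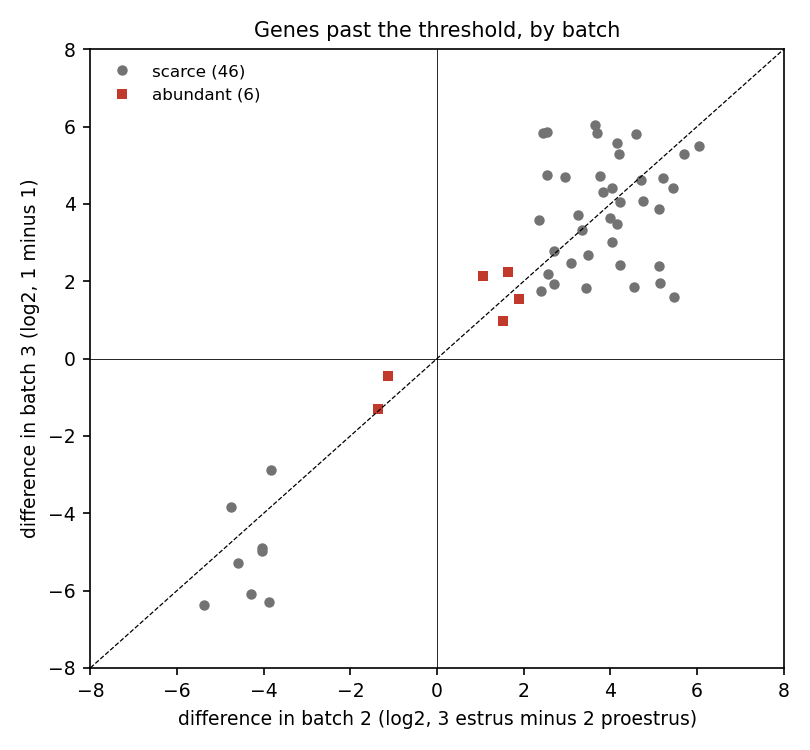
Difference between estrus and proestrus in batch 3, with 1 library each (vertical axis, log2), against batch 2, with 3 estrus and 2 proestrus libraries (horizontal axis, log2), for the 46 scarce (grey circles) and 6 abundant (red squares) genes past the threshold. The dashed line marks equal differences. All 52 points lie in the lower left or upper right part of the plot.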

How the data were processed

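The deposited table holds log2 values per gene and library that the authors derived from RNA sequencing of TRAP RNA. Per the submitters' processing notes the tools include STAR, Salmon and edgeR and the build is GRCm39. The sources used here do not give the pseudocount, scaling or filters, and the depth is unknown. The values lack 4 directions of variation between libraries beyond the group means, so variation was removed before deposit, and plain p-values would be too small.

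Genes with a value of at least 3.32 in at least 3 of 19 libraries were tested with limma 3.58.1 (R 4.3.3; trend and robust prior; two-sided; Benjamini-Hochberg, threshold 0.05). The model held group, batch and the 2 missing directions that these do not span, leaving 11 residual degrees of freedom. Calls counted without these directions were 194. The script was tested on simulated data.

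Named were all abundant genes past the threshold, with the next by p up to 6 per direction, the 8 scarce genes per direction with the lowest adjusted p, list members past the threshold, the 2 abundant members per list with the lowest p, and steroid receptors and tag genes. Genes without a symbol were not named, and 1 gene of this rule is not reported here. The members and the 39 lists were chosen with earlier results of these data known. Of 824 listed symbols 39 were not tested. Alternatives changed the libraries, batch term, filter, pseudocount, scaling and variance model.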

Additional observations from a re-analysis of the deposited data

Results flagged for a closer look

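In 3 of 77 results checked (38 genes and 39 list means), 1 of the 4 estrus libraries lay apart from the other 3: the gap to its nearest neighbour, as a share of the whole range, was above Dixon's 95% critical value. Chance marks about 1 in 20 such groups. Esr1 read 4.46 in Estrus 3 and 6.38 to 6.51 in the other estrus libraries. Gm10645 read 4.53 in Estrus 4 and 5.70 to 5.86 in the others. The RIKEN-named gene 1810021B22Rik read 8.17 in Estrus 4 and 8.59 to 8.65 in the others. The low library lay on the side of the proestrus values each time.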

How the results depend on the processing

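Against 52 genes past the threshold (6 abundant, 46 scarce), the count was 194 (38 and 156) with the missing directions not counted, 308 (110 and 198) with library weights, 403 (158 and 245) without the batch 3 libraries, and 0 (0 and 0) both with the 7 libraries alone and with the 10 libraries of batches 2 and 3. It was 33 (29 scarce) without a batch term and 32 (26 scarce) with a filter at 50. Leaving out 1 library gave 32 to 195 in all, 1 to 70 abundant and 31 to 125 scarce, the highest without Estrus 4 and the lowest without Proestrus 1. In the fits that leave libraries out, fewer of the missing directions can be seen, so their p-values may be too small. With 10 added before the log 73 genes passed, 31 higher and 42 lower, and 31 of the 52 were among them, so the split by direction depends on the scale at low values. Without the trend and robust prior the split was 42 and 21, and 38 of the 52 were kept. Of the 6 abundant genes 3 were kept, and Plaat1, Bcl9l and Dact3 lost their calls. Esr1, Lca5 and Cfap69 lost theirs in that fit too. Bcl9l, Dact3 and Cfap69 also lost their calls without a batch term.

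Of 25 named genes past the threshold, 10 passed in every fit that left out 1 library. Of the same 25, 8 passed in every alternative that tested them, except the fits of 7 and 10 libraries, where 0 genes passed. Among these 8, Gm43670 and Tbx2 were not tested in 1 alternative, that with the higher filter. Of 75 genes followed, 1 changed sign anywhere: for Aldh1l1, 0.105 as reported, leaving out 1 library gave -0.030 (without Estrus 3, adjusted p 0.976) to 0.236 (without Estrus 4). No paired analysis was possible because the labels give the libraries no shared replicate numbers. The size of the SE limits what scarce genes can show.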
